A study of Mus musculus with 23 samples.

Results

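The response of the liver to pregnenolone-16α-carbonitrile (PCN) was examined in male Pxr-/- mice, which lack the pregnane X receptor (PXR). The 12 arrays of Pxr-/- liver, chosen by genotype and treatment, were 6 from mice given PCN (Pxr-/- PCN) and 6 from mice given vehicle (Pxr-/- CONT), out of 23 liver arrays in all. The Pxr-/- line was backcrossed on the C57Bl/6J background and had been bred for 10 years in the study's own facility. Treatment ran for 4 days, with 1 injection into the peritoneum each day, of corn oil in the Pxr-/- CONT group and of PCN in the same oil (100 mg/kg) in the Pxr-/- PCN group. Livers were taken at ZT6 (hours after lights on), 6 hours after the final dose, when the mice were fed according to the sample labels, while the study's text calls their state at that hour semi-fasted. The age of the Pxr-/- mice and the deleted part of the gene are not given in the sources used here. Wild-type (WT) C57BL/6J males, bought at 6 weeks of age and kept for 2 weeks before the start, were treated in the same way and gave 6 WT CONT and 5 WT PCN arrays. WT and Pxr-/- mice therefore came from different colonies, and a difference between them by genotype cannot be told apart from one by colony. Each array held RNA from the liver of 1 mouse.

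PXR is a nuclear receptor that senses foreign chemicals and some steroids and bile acids, and PCN is the ligand commonly used to activate it in rodents. Once bound, it pairs with RXR and switches on genes for drug oxidation, conjugation and transport, among them *Cyp3a11*. PCN is a synthetic steroid given in large doses in oil, and the mice of both groups had the same daily injections of oil. The liver also has other routes of response, such as the acute phase response. In that response, cytokines such as IL-1 and IL-6 act on hepatocytes through NF-kB and STAT3 and switch on a set of secreted proteins. The comparison asks what PCN does in the liver without its receptor.

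The array did not show the loss of the receptor itself. The probe for *Nr1i2*, the gene that encodes PXR, read from 10.16 to 12.08 (median 11.79, log2 signal) in Pxr-/- CONT and from 10.63 to 12.15 (median 11.60) in WT CONT. It may lie outside the deleted part and so checks nothing. The genes that PXR switches on did separate the genotypes. *Cyp3a11*, the main mouse enzyme of the CYP3A family, read 13.33, 14.45 and 14.78 (lowest, median and highest log2 signal) in Pxr-/- CONT and 14.14, 14.64 and 15.13 in Pxr-/- PCN, and these ranges overlapped. Its change after PCN was 0.31 (log2, adjusted p = 0.431) in Pxr-/- liver against 3.55 in WT liver, and the difference between those changes, -3.24, passed the test. *Cyp2c55*, another PXR target, read 9.60, 9.79 and 10.62 in Pxr-/- CONT and 10.40, 10.45 and 10.56 in Pxr-/- PCN, a change of 0.54 (adjusted p = 0.14) against 6.26 in WT liver. Hepatocyte markers fitted the labelled tissue: their summed log2 level was 21.16 to 21.24 in Pxr-/- CONT and 21.15 to 21.23 in Pxr-/- PCN. Washing batches held 3 arrays of each Pxr-/- group each, each Pxr-/- array had 29506 to 33319 of 56605 probes well above background, and the brightness of the 2 groups differed by 0.06 (log2, exact permutation test, two-sided, p = 0.42). The number of arrays limits the precision of every value given here.

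**Figure D1:**
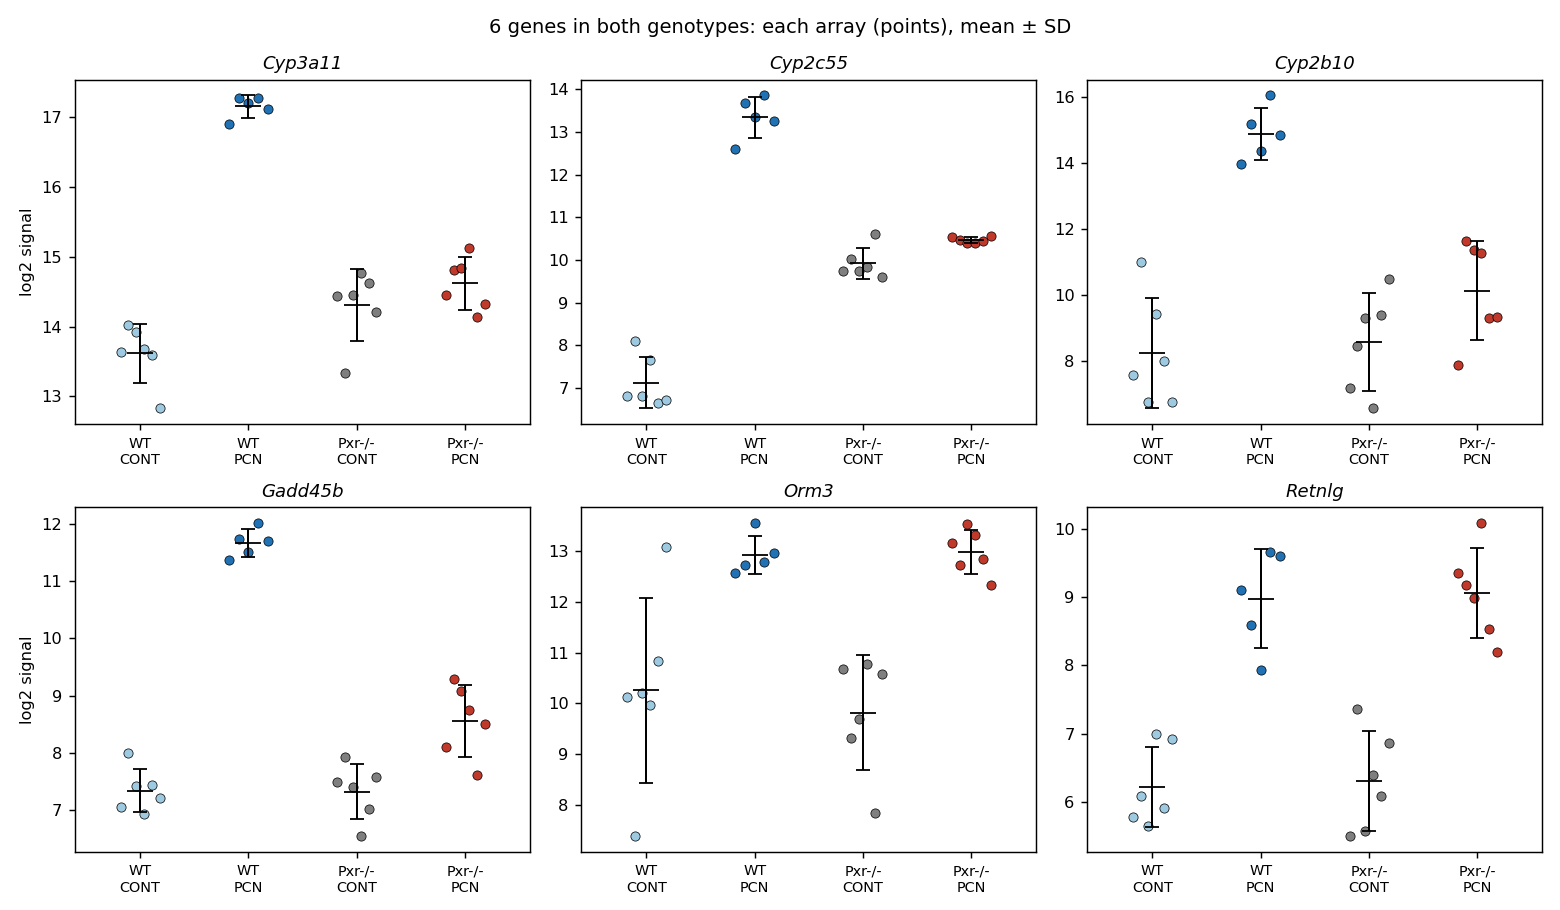
Log2 signal of 6 genes on each array (points) of the 4 groups, with the mean and SD as bars (n = 6 each, and 5 for WT PCN). *Cyp3a11*, *Cyp2c55*, *Cyp2b10* and *Gadd45b* changed more in WT than in Pxr-/- liver, whereas *Orm3* and *Retnlg* were higher after PCN in both genotypes.

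PCN changed the expression of many genes in Pxr-/- liver. A gene was called higher or lower when its brightest probe had a fold change above 1.5 and a limma p of at most 0.05 after Benjamini-Hochberg adjustment over all probes. Of 21056 genes, 300 (1.42%) were called higher and 181 (0.86%) lower after PCN. A change above 2-fold was seen in 104 of the former and 40 of the latter. The median change of all genes was -0.01, which the quantile normalization holds near 0. All 300 and all 181 had the same sign within both washing batches. They were chosen by a fit that holds the same arrays, so the selection favours this agreement. The 6 PCN and 6 CONT arrays did not overlap for 145 of the 300 and 72 of the 181 genes, whereas 331 (1.57%) and 333 (1.58%) of all genes did not overlap in each direction. Probes of a gene could disagree. Among the genes named below, beside those whose probe counts stand with their values, 1 of 2 probes was called for *Il1rn*, *Il1b*, *Mt1*, *Ahr*, *Wt1*, *Thbs1*, *Prox1*, *Rnf150*, *Raet1a*, *Akr1d1*, *Mcm10* and *Fam198a*, 1 of 3 for *Csf1*, *Irak3*, *Tiam2* and *Col3a1*, 2 of 3 for *Stat3* and 5 of 7 for *Esr1*. With any probe of a gene counted, 337 (1.6%) and 200 (0.95%) were called. Probes were tested when well above background on over 50% of the arrays of at least 1 group. Some called genes reached this level on at most 3 of 6 Pxr-/- CONT arrays. Among them were *A2m* (acute phase list), *Egr2* (immediate early), *Foxm1* (mitosis), *Il1r2* and *Thbs1*. Such genes could pass the filter only through other groups, so the counts of lists that hold them are descriptions. In the authors' deposited values 315 and 113 genes were called, so that 73.6% of the calls were higher, against 62.4% here.

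The treatment was also the main axis of variation among Pxr-/- livers. The first principal component carried 27.4% of the variance, and its scores ran from 7.33 to 39.3 in Pxr-/- PCN and from -27.6 to -10.1 in Pxr-/- CONT. The groups did not overlap, and their means differed by 42.2 (exact permutation test over 924 splits, two-sided, p = 0.00216, the smallest p that 6 against 6 arrays can give).

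**Figure D2:**
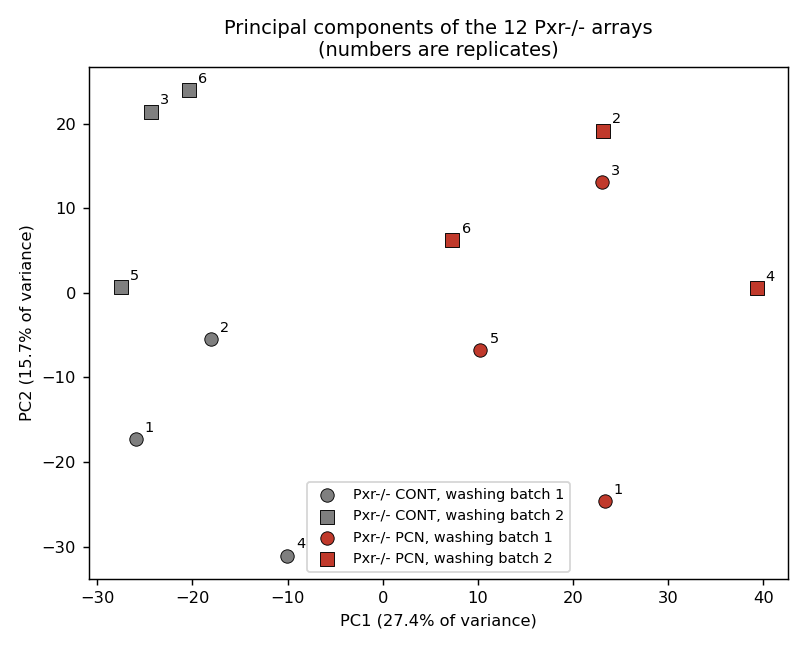
Scores of the 12 Pxr-/- arrays on the first and second principal components, with the share of the variance on each axis, colour for treatment and shape for washing batch. All 6 PCN arrays lie above 0 on the first component and all 6 CONT arrays below it, in both washing batches.

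Acute phase genes were among the rises. Of 37 tested acute phase genes 13 were called higher and none lower, 33 lay above 0, and the median change was 1.02 against -0.01 for all genes. Without Pxr-/- CONT 5, whose levels of *Saa1* and *Itih3* were the lowest of its group by far, the median was 0.55. The 13 called genes were not all secreted acute phase proteins. They held *S100a8* and *S100a9*, which stand in the neutrophil list too. They also held *Cd14*, *Il1r1*, *Il1rn*, *Socs3*, *Steap4* and *Mt1*, which are receptors, inhibitors, a metalloreductase and a metallothionein. *Orm3*, a secreted orosomucoid, read 7.85, 10.14 and 10.77 in Pxr-/- CONT and 12.34, 13.00 and 13.54 in Pxr-/- PCN. All 6 PCN livers lay above all 6 CONT livers, and the change was 3.17 (SE 0.61, adjusted p = 0.00414), or 8.99-fold. *S100a8* and *S100a9*, which pair to form calprotectin, rose by 2.19 (SE 0.44, adjusted p = 0.00516) and 2.00 (adjusted p = 0.0053). *Itih3*, a hyaluronan-binding protein secreted by hepatocytes, read 15.39, 16.37 and 16.42 in CONT and 16.96, 17.30 and 17.43 in PCN, a rise of 1.02 (adjusted p = 0.0013) with no overlap. *Saa4* rose by 1.02 (adjusted p = 0.0127) and *Saa3* by 1.37 (adjusted p = 0.0234). *A2m*, a protease inhibitor, was not well above background on any CONT array and rose at least 2.03-fold.

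Several classical acute phase proteins did not pass the test. *Saa1* read 13.92, 18.13 and 18.49 in CONT and 18.39, 18.51 and 18.55 in PCN. Both groups lay near the top of the scale except for 1 low CONT liver, and the change was 1.12 (adjusted p = 0.297). *Lcn2*, an iron-siderophore binding protein, read 10.66, 14.05 and 15.25 in CONT and 15.64, 16.23 and 16.77 in PCN. Its groups did not overlap on the brightest probe, but CONT livers spread widely and the change of 2.53 had an adjusted p of 0.0584. The other of its 2 probes was called higher. With any probe of a gene counted, 17 of the 37 acute phase genes were called higher. The fibrinogen genes *Fga* and *Fgb* changed by 0.27 and 0.03, *Hp*, *Crp* and *C3* by 0.16, -0.01 and 0.04, and *Hamp*, the iron hormone hepcidin, by 0.30 (adjusted p = 0.623), none of them called. Metallothionein genes *Mt1* and *Mt2* gave 1.30 (adjusted p = 0.0394) and 1.83 (adjusted p = 0.0828), and only *Mt1* was called. The *Mt1* call was lost on leaving out any of 10 of the 12 Pxr-/- arrays, all but Pxr-/- CONT 2 and 6 (adjusted p up to 0.0842), and the *Saa3* call without Pxr-/- CONT 3 or 5 or Pxr-/- PCN 1 or 4 (up to 0.0706). With the slide as a fixed block the calls of *Saa3*, *Saa4*, *Mt1* and *A2m* were lost and 8 of 37 acute phase genes were called.

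Some components of IL-1, IL-6 and NF-kB signalling were called higher. This list, drawn up after values had been seen, held 49 tested genes, of which 20 were called higher and none lower, with 43 above 0 and a median change of 0.52. It shares 4 of its called genes, *Cd14*, *Il1r1*, *Il1rn* and *Socs3*, with the acute phase list. Among the ligands, *Cxcl1*, a chemokine that draws neutrophils, read 9.56, 10.90 and 12.25 in CONT and 11.45, 13.85 and 14.69 in PCN. The ranges overlapped, and the change was 2.69 (SE 0.62, adjusted p = 0.0126). *Il1b* rose by 0.97 (adjusted p = 0.0053) and *Csf1*, the growth factor of macrophages, by 0.78 (adjusted p = 0.000639). Among the receptors, *Osmr*, which binds oncostatin M, read from 7.71 to 8.34 in CONT and from 8.75 to 9.98 in PCN, with no overlap and a rise of 1.40 (adjusted p = 0.000657). *Il17ra* rose by 1.27 (adjusted p = 0.00319), *Il1r1* by 1.42 (adjusted p = 0.0206) and *Cd14*, the lipopolysaccharide co-receptor, by 1.42 (adjusted p = 0.00525). Inside the cell, *Tifa* and *Alpk1*, which act in 1 pathway from bacterial sugars to NF-kB, rose by 1.59 (adjusted p = 0.0127) and 1.26 (adjusted p = 0.00503), and *Stat3* by 0.75 (adjusted p = 0.021).

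Inhibitors of the same pathways rose as well. *Socs3*, which blocks IL-6 signalling through STAT3, read 9.23, 10.56 and 11.13 in CONT and 11.46, 12.64 and 13.09 in PCN. The groups did not overlap, and the rise was 1.91 (SE 0.43, adjusted p = 0.0105). *Il1rn*, the antagonist of the IL-1 receptor, read 6.03, 6.32 and 7.40 in CONT and 7.41, 8.11 and 9.34 in PCN, a rise of 1.69 (adjusted p = 0.00342) in which the highest CONT liver lay just under the lowest PCN liver. *Il1r2*, the decoy receptor for IL-1, rose by 0.99 with 1 of 6 CONT arrays well above background, *Irak3*, an inhibitor of Toll-like and IL-1 receptor signalling, by 0.82 (adjusted p = 0.000639), and *Bcl3*, a nuclear member of the IkB family, by 1.19 (adjusted p = 0.00842). *Steap4*, a metalloreductase of inflamed liver and fat, read 9.10, 9.56 and 10.28 in CONT and 10.40, 11.83 and 12.57 in PCN, with no overlap and a rise of 2.01 (SE 0.38, adjusted p = 0.00349). The calls of *Il1r1* and *Stat3* were each lost on leaving out 4 single arrays, for *Il1r1* Pxr-/- CONT 1 or 5 or Pxr-/- PCN 3 or 4 (adjusted p up to 0.0619) and for *Stat3* Pxr-/- CONT 1 or 5 or Pxr-/- PCN 2 or 3 (up to 0.0581). With the slide as a fixed block the calls of *Il1r1* and *Tifa* were lost, and with normexp background correction that of *Irak3*.

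**Figure D3:**
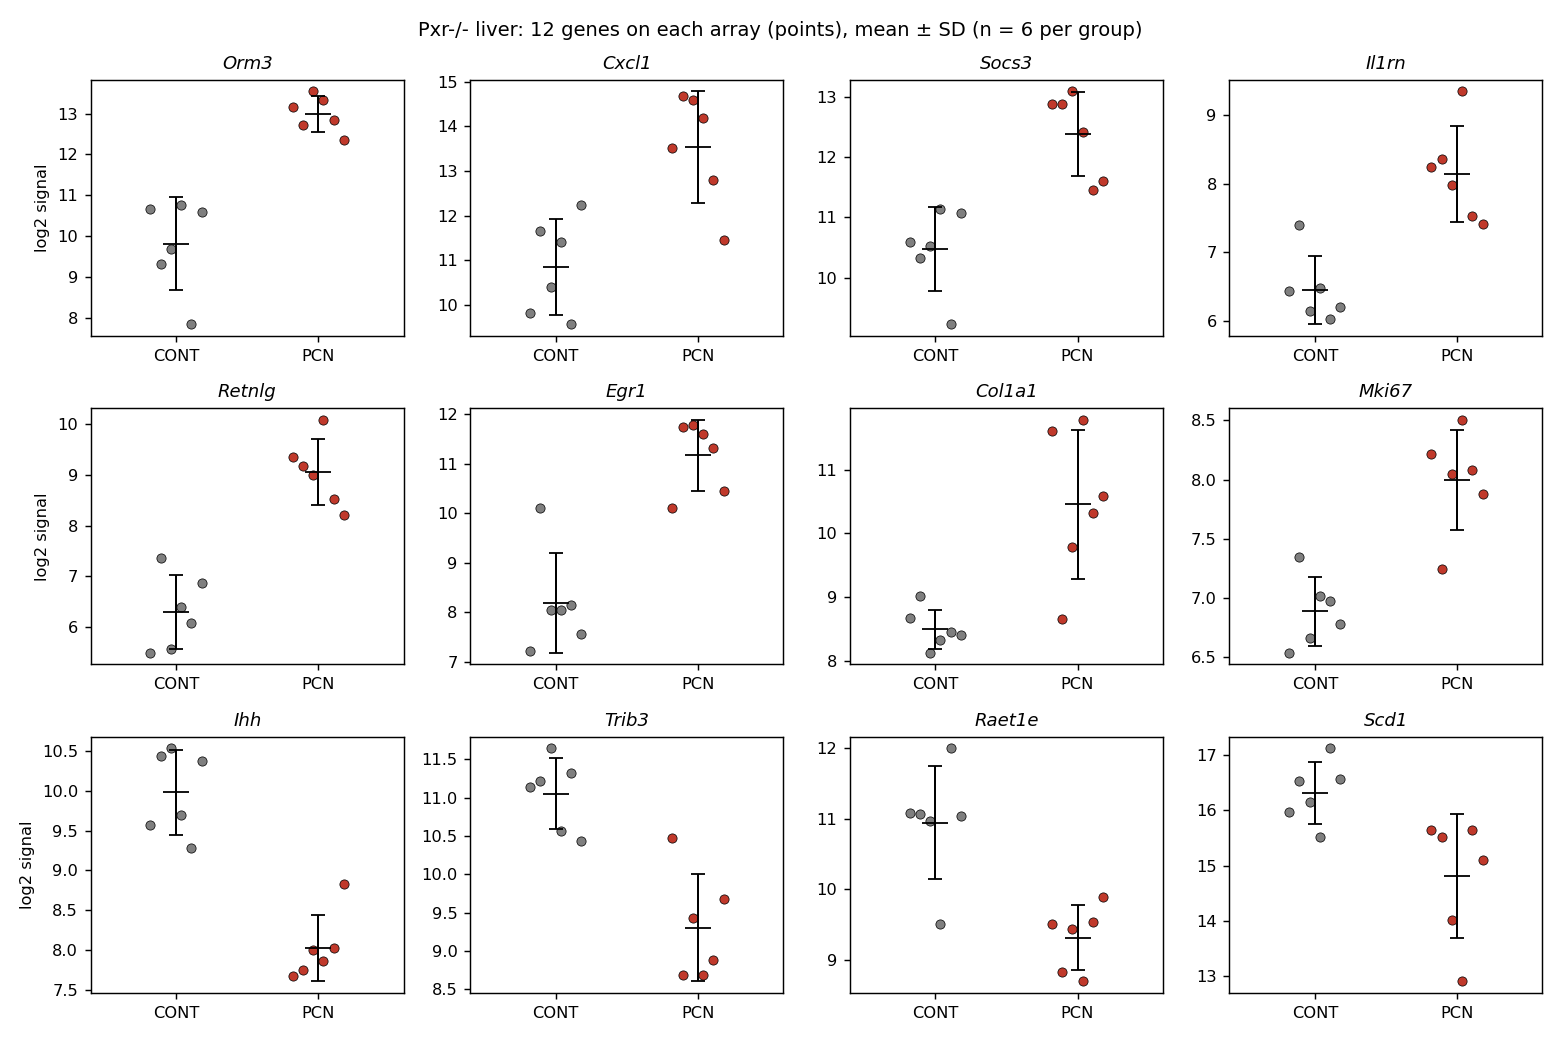
Log2 signal of 12 genes on each Pxr-/- array (points; grey CONT, red PCN), with the mean and SD of each group (n = 6). The 2 groups do not overlap for *Orm3*, *Socs3*, *Il1rn*, *Retnlg* and *Ihh*, and they overlap for *Cxcl1*, *Egr1*, *Col1a1*, *Mki67*, *Trib3*, *Raet1e* and *Scd1*.

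Promoter sequences of 4 of these genes are shown because they carry the short motifs known for the factors of the acute phase response. Each is the 250 bases before the transcription start in RefSeq (GRCm38.p6), written in the direction of transcription, with matches in capitals. The motifs searched on both strands were TTCNNNGAA for STAT factors, GGG and TTTCC with any 2 bases between them for NF-kB and TTGCNNAAT for C/EBP, and none of the matches overlapped another.
Socs3, chr11:117969367-117969616, minus strand: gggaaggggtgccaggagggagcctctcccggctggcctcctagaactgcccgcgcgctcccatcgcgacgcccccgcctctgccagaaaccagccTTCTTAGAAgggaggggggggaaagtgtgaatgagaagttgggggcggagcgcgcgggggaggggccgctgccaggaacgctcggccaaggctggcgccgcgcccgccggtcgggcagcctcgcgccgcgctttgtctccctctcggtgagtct
Steap4, chr5:7960222-7960471, plus strand: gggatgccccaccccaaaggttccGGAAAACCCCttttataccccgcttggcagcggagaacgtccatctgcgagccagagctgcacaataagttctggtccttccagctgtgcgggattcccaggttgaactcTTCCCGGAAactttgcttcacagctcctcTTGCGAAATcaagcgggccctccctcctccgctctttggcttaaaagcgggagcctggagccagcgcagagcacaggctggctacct
Cxcl1, chr5:90890995-90891244, plus strand: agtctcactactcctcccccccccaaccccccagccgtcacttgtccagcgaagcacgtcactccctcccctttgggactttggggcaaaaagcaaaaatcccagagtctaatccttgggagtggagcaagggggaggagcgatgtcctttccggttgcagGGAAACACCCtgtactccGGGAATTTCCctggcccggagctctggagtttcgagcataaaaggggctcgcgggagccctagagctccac
Saa3, chr7:46715677-46715926, minus strand: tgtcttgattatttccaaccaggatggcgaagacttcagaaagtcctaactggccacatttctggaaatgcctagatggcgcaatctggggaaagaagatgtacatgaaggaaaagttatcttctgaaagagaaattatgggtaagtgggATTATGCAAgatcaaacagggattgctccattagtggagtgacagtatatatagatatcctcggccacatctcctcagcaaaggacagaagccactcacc
*Socs3* held a STAT match, TTCTTAGAA, 154 to 146 bases before the start. *Steap4* held matches to all 3 motifs: a STAT match at 116 to 108 bases, an NF-kB match on the other strand at 226 to 217 and a C/EBP match at 87 to 79. *Cxcl1* held 2 NF-kB matches, at 89 to 80 and at 71 to 62 bases, and *Saa3* held a C/EBP match at 100 to 92. In this window the STAT motif was found in 7.18% of 27025 promoters, the NF-kB motif in 1.40% and the C/EBP motif in 2.17%. Of the genes called higher, 205 of 261 with a RefSeq name had a promoter in the table, and the motifs were found in 23 (11.2%), 9 (4.39%) and 8 (3.90%) of them. Of the genes called lower, 118 of 154 had a promoter, with 0, 1 (0.847%) and 3 (2.54%) matches. These shares are descriptions and were not tested, and a match is not a bound site.

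Genes typical of neutrophils rose in part. *Retnlg*, a secreted protein of neutrophils and their precursors, read 5.49, 6.24 and 7.37 in Pxr-/- CONT and 8.20, 9.09 and 10.09 in Pxr-/- PCN. The groups lay well apart, and the change was 2.76 (SE 0.37, adjusted p = 0.000479), or 6.79-fold. Of 11 tested neutrophil markers 5 were called higher, *Retnlg*, *S100a8*, *S100a9*, *Mmp8*, a collagenase of their granules (1.04, adjusted p = 0.00468), and *Cxcr2*, the receptor for *Cxcl1* (0.79, adjusted p = 0.0105). The other 6 were not called, and they hold defining genes: *Ly6g* changed by 0.35, *Csf3r* by 0.03, and the granule proteins *Elane*, *Camp*, *Ltf* and *Mpo* by -0.12, -0.28, -0.32 and -0.45. The median of the list was 0.35, with 7 genes above 0 and 4 below, and its summed level was 14.84 to 15.12 (log2) in CONT and 15.10 to 15.60 in PCN. In whole liver, more cells of a type and more RNA per cell cannot be told apart. Kupffer cell and macrophage markers had no call among 15 tested, with 14 above 0, a median of 0.32 (0.19 without Pxr-/- CONT 1) and summed levels of 15.61 to 16.66 in CONT and 15.76 to 16.78 in PCN. The part of any change in cell numbers in these results was not tested. With probes required above background on all 12 Pxr-/- arrays, 2 neutrophil markers were called and the median was 0.19, and with normexp background correction the *Cxcr2* call was lost.

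Stefin A genes, a cluster of near-identical cysteine protease inhibitors on mouse chromosome 16 known from myeloid cells, were among the genes called higher. In a list drawn up after values had been seen, 5 of 8 members were tested and called higher, with a median change of 1.28 (1.26 with dim genes at their lower bound), and 3 were set aside as too dim. Of the 5, 4 were well above background on at most 2 of 6 CONT arrays and could pass the filter only through groups where they were brighter, so the count is a description. *BC100530* was not well above background on any CONT array and rose at least 2.73-fold, and *Stfa1* at least 2.05-fold. *Gm5483*, well above background on 1 of 6 CONT arrays, rose by 1.28 (adjusted p = 0.00137, 0.78 to 2.72 over the settings tried), *Stfa2* by 1.26 (adjusted p = 0.00503) and *Stfa2l1* by 1.23 (adjusted p = 0.00182). Their probes can share transcripts, so the 5 are not independent measurements, and their median was 2.72 with 75th percentile scaling and 0.84 with normexp background correction. *Padi4*, which modifies histones in neutrophils, and *Alox5*, which makes leukotrienes, rose at least 1.60-fold and 1.51-fold from a level not well above background in CONT. The C-type lectins *Clec4d* and *Clec4e* of myeloid cells rose by 1.40 (adjusted p = 0.0187) and 1.23 (adjusted p = 0.0216). The *Clec4d* call was lost without Pxr-/- PCN 4 (adjusted p = 0.0518) and the *Clec4e* call without Pxr-/- CONT 5 or Pxr-/- PCN 1 or 4 (up to 0.0643) and with the slide as a fixed block. The *Alox5* call was lost without Pxr-/- PCN 1 or 4 (adjusted p up to 0.0507), the *Padi4* call without Pxr-/- CONT 3 or Pxr-/- PCN 1 or 4 (up to 0.0735), and both with normexp background correction.

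Immediate early genes, which cells switch on within minutes of a stimulus, included 9 called higher and none lower among 35 tested, with a median of 0.43. *Egr1*, a zinc finger transcription factor, read 7.22, 8.05 and 10.11 in Pxr-/- CONT and 10.10, 11.46 and 11.78 in Pxr-/- PCN. One CONT liver reached the lowest PCN liver, the other 5 stayed well below it, and the change was 2.97 (SE 0.67, adjusted p = 0.0106), or 7.85-fold. *Fos* read 6.19, 6.98 and 7.44 in CONT and 7.68, 8.07 and 9.16 in PCN, with no overlap and a rise of 1.27 (adjusted p = 0.0113). *Fosl2*, another subunit of AP-1, rose by 0.96 (adjusted p = 0.000489), *Ier5* by 0.79 and *Ier3* by 0.70. *Gadd45b*, a stress gene that also answers to nuclear receptors in liver, read 6.54, 7.45 and 7.92 in CONT and 7.62, 8.62 and 9.29 in PCN, a rise of 1.23 (adjusted p = 0.00546). With the slide as a fixed block 5 of the 35 were called and the *Fos* call was lost, and with normexp background correction the *Ier3* call.

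Collagen and matrix genes rose as well. In a list drawn up after values had been seen, 13 of 48 tested genes were called higher and 1 lower, with 43 above 0 and a median of 0.43. *Col1a1*, the main fibrillar collagen, read 8.13, 8.43 and 9.01 in Pxr-/- CONT and 8.66, 10.46 and 11.78 in Pxr-/- PCN. The ranges overlapped through 1 PCN liver, and the change was 1.96 (SE 0.40, adjusted p = 0.00629). *Col1a2* rose by 1.37 (adjusted p = 0.0161, called on 1 of 3 probes) and *Col6a2* by 1.00 (adjusted p = 0.0136, 1 of 3 probes). *S100a4*, a calcium-binding protein of fibroblasts and myeloid cells, read 8.43, 8.90 and 9.96 in CONT and 9.99, 11.22 and 11.80 in PCN, a rise of 1.90 (adjusted p = 0.00151) in which the groups just failed to overlap. *S100a6* rose by 1.53 (adjusted p = 0.000952), *Thbs1*, a matrix protein of wound repair, by 1.19 (adjusted p = 0.00897) and *Vim*, an intermediate filament of mesenchymal cells, by 0.89 (adjusted p = 0.00857). The stellate cell and fibroblast list had 3 called of 14, all of them fibrillar collagens (*Col1a1*, *Col1a2*, *Col3a1*), while *Acta2*, the actin of activated stellate cells, changed by 0.23 (adjusted p = 0.265). The summed level of that list was 15.08 to 15.86 in CONT and 15.28 to 16.14 in PCN. The *Col3a1* call (1.22, adjusted p = 0.033) was lost without any of Pxr-/- CONT 1, 3, 4 or 6 or Pxr-/- PCN 1, 4 or 6 (adjusted p up to 0.0964), and in the fit of the 12 Pxr-/- arrays alone the calls of *Col1a2* and *Col3a1* were lost.

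Genes of the mesothelium, the cell sheet that covers the liver, and of epithelia were among the rises. *Krt14*, a keratin of basal epithelia, read 5.30, 5.71 and 6.47 in CONT and 6.23, 8.16 and 8.73 in PCN. A single PCN liver lay within the CONT range, and the change was 2.18 (adjusted p = 0.000952). *Has1*, a hyaluronan synthase well above background on 1 of 6 CONT arrays, rose by 0.70 (adjusted p = 0.00503), although that call was lost with normexp background correction. It could pass the filter only through groups where it was brighter. All 10 tested genes of a mesothelium list drawn up after values had been seen lay above 0, with a median of 0.69, and 3 were called (*Krt14*, *Has1* and *Wt1*). The defining gene *Msln* changed by 0.68 (adjusted p = 0.343) and *Upk3b* by 0.41 (adjusted p = 0.403), neither called. *Plaur*, the urokinase receptor, rose by 1.25 (adjusted p = 0.000586), and *Thbd*, the thrombomodulin of endothelium and mesothelium, by 1.22 (adjusted p = 0.00852). The *Wt1* call was lost without any of Pxr-/- CONT 1, 3 or 6 or Pxr-/- PCN 1, 4, 5 or 6 (adjusted p up to 0.0838) and in the deposited values.

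The rise with the smallest adjusted p belonged to no list. *Igdcc4*, an immunoglobulin superfamily membrane protein, read 5.08, 5.25 and 5.85 in CONT and 7.10, 8.19 and 8.80 in PCN. All 6 PCN livers lay far above all 6 CONT livers, of which 1 was well above background, and the change was 2.65 (SE 0.25, adjusted p = 1.4e-05) on the brightest probe, with both of its probes called. The size of that change is read against a CONT level near background and ranged from 2.01 to 4.63 over the settings tried. *Pip5k1a*, a lipid kinase, read 10.36, 13.30 and 14.34 in CONT and 14.02, 16.44 and 16.86 in PCN and changed by 2.79 (adjusted p = 0.0266), but only 1 of its 3 probes was called. *Inhbb*, a subunit of activin B, rose by 1.65 (adjusted p = 0.00981), and *Cldn14*, a tight junction protein, by 1.01 (adjusted p = 0.000489). The *Pip5k1a* call was lost without any of Pxr-/- CONT 3 or 5 or Pxr-/- PCN 1, 2, 3 or 4 (adjusted p up to 0.0706) and with the slide as a fixed block.

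The largest fall among named genes was that of *Ihh*, the Hedgehog ligand that hepatocytes can secrete. It read 9.28, 10.03 and 10.53 in Pxr-/- CONT and 7.68, 7.93 and 8.83 in Pxr-/- PCN. All 6 PCN livers lay below all 6 CONT livers, and the change was -1.96 (SE 0.28, adjusted p = 0.000639), a 3.88-fold fall. *Gas1*, a Hedgehog co-receptor, fell as well, by 0.75 on the log2 scale (adjusted p = 0.00298). The other 12 tested genes of the pathway were not called, including the receptor *Ptch1* (0.18) and the transcription factor *Gli1* (0.39), both of which are themselves Hedgehog targets.

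*Trib3*, a pseudokinase that restrains insulin signalling and is a target of the stress factor ATF4, read 10.43, 11.18 and 11.65 in CONT and 8.68, 9.15 and 10.47 in PCN. One PCN liver lay just inside the CONT range, and the change was -1.75 (SE 0.28, adjusted p = 0.00136). It was the only gene called among 31 tested ATF4 stress genes. The 4 called members of the Raet1 family, surface ligands that mark stressed cells for NK cells, fell together, with changes of -1.62 for *Raet1e* (log2, adjusted p = 0.00283), -1.59 for *Raet1a* (adjusted p = 0.00337), -1.30 for *Raet1b* (adjusted p = 0.00522) and -0.89 for *Raet1c* (adjusted p = 0.00837). *Raet1e* read 9.51, 11.06 and 11.99 in CONT and 8.70, 9.47 and 9.89 in PCN, and the ranges overlapped through the lowest CONT liver. The sequences of these genes are nearly the same, so their probes may read shared transcripts. *Mycn*, a proto-oncogene transcription factor, read 7.47, 8.41 and 9.11 in CONT and 6.13, 6.67 and 7.27 in PCN and fell by 1.62 (adjusted p = 0.000952) with no overlap.

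Lipid synthesis genes leaned downwards. Of 32 tested lipogenesis genes 29 lay below 0 and the median was -0.42, but 4 were called lower and none higher. The summed log2 level of the list was 19.14 to 20.00 (median 19.35) in Pxr-/- CONT and 18.48 to 19.33 (median 18.98) in Pxr-/- PCN. In WT CONT it was 18.58 to 19.30 (median 18.91), so the list fell from a vehicle level whose median lay above that of WT liver. Whether the list differs between the genotypes at vehicle was not tested. Within washing batches 1 and 2 the median was -0.22 and -0.70, and 1 gene was called when Pxr-/- CONT 5 or 6 or Pxr-/- PCN 3 or 4 was left out, against 7 called without Pxr-/- PCN 5. *Me1*, which supplies NADPH for fatty acid synthesis, read 12.33, 13.27 and 14.31 in CONT and 11.62, 12.20 and 12.75 in PCN, a fall of 1.03 (log2, adjusted p = 0.0119) with both its probes called. *Scd1*, the desaturase that makes oleate, read 15.52, 16.34 and 17.12 in CONT and 12.91, 15.31 and 15.65 in PCN. The ranges overlapped, 2 PCN livers were far lower than the rest, and the change was -1.50 (adjusted p = 0.0287). *Fabp5*, a fatty acid carrier outside the list, fell by 1.43 (adjusted p = 0.0167), while *Fasn* (-0.99, adjusted p = 0.123) and the transcription factor *Srebf1* (-0.62, adjusted p = 0.126) did not pass the test. *Thrsp* gave -0.52 (adjusted p = 0.515) and *Pnpla3*, a lipid droplet protein, 0.00 (adjusted p = 1), where WT liver gave 1.75 and 2.86. The *Scd1* call was lost without Pxr-/- CONT 5 or 6 or Pxr-/- PCN 3 or 4 (adjusted p up to 0.0743) and with the slide as a fixed block, and the *Fabp5* call without Pxr-/- PCN 4 (0.0531). Both were lost in the fit of the 12 Pxr-/- arrays alone.

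The coactivators *Ppargc1a* and *Ppargc1b*, which drive mitochondrial and fasting genes, both fell. *Ppargc1a* read 9.18, 9.44 and 9.77 in CONT and 7.94, 8.58 and 8.88 in PCN, with no overlap and a fall of 0.96 (log2, adjusted p = 0.0031). *Ppargc1b* fell by 1.07 (adjusted p = 0.00255) with both probes called. *Irs1*, the adaptor of the insulin receptor, fell by 0.90 (adjusted p = 0.0109). *G6pc*, which releases glucose from the hepatocyte, gave -1.38 (adjusted p = 0.0945) and was not called. All 37 tested genes of oxidative phosphorylation lay below 0, with a median of -0.17 and no call. In the list of 12 PPARα target genes that the study itself named from these livers, all 12 lay below 0 with a median of -0.39 (-0.22 within washing batch 1) and no call, against a median of -1.25 and 10 falls in WT liver. That list is no independent evidence of its direction. *Ppara* itself gave -0.18 (adjusted p = 0.265) in Pxr-/- and -1.05 in WT liver, and this difference passed the test (0.87, adjusted p = 0.000882). *Fgf21*, a fasting hormone of the liver, gave -0.82 (adjusted p = 0.254), and *Cyp4a10*, a fatty acid hydroxylase, -0.90 (adjusted p = 0.103) on its brightest probe. Of the 3 *Cyp4a10* probes 1 was called lower, so with any probe counted 1 of the 12 PPARα targets was called.

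*Cyp26a1*, which breaks down retinoic acid and is switched on by it, read 9.29, 10.36 and 11.40 in Pxr-/- CONT and 8.18, 8.69 and 9.61 in Pxr-/- PCN. The ranges overlapped, and the change was -1.49 (SE 0.33, adjusted p = 0.0101). *Slc13a2*, a dicarboxylate transporter, fell by 1.56 (adjusted p = 0.00606), whereas its paralog *Slc13a3* rose from 10.95, 11.64 and 12.17 to 12.49, 12.89 and 13.25, by 1.28 (adjusted p = 0.00264) with no overlap. Tissue kallikreins of the Klk1b cluster, near-identical serine proteases, lay below 0 in all 9 tested and were called lower in 5, with a median of -0.68 in a list drawn up after values had been seen. No single call of the cluster was firm: *Klk1b4*, *Klk1b8*, *Klk1b3*, *Klk1b24* and *Klk1b22* changed by -0.84, -0.76, -0.67, -0.75 and -0.67, and all 5 lost their call without Pxr-/- PCN 3, without Pxr-/- PCN 4 and with the slide as a fixed block. The count was 1 without Pxr-/- CONT 2 or 5 or Pxr-/- PCN 2, 2 without Pxr-/- CONT 6, 3 without Pxr-/- PCN 1, and 8 without Pxr-/- PCN 5 or 6, with a median of -0.79 to -0.54 over all settings. *Serpina7*, which carries thyroid hormone, fell by 1.40 (adjusted p = 0.0157), and *Fam13a* by 1.28 (adjusted p = 0.00182) with no overlap.

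Other xenobiotic receptors changed in the absence of PXR. *Nr1i3* encodes the constitutive androstane receptor (CAR), the nearest relative of PXR. It read 10.20, 10.73 and 11.11 in Pxr-/- CONT and 11.18, 11.76 and 11.99 in Pxr-/- PCN. The groups did not overlap, both of its probes were called, and the rise was 0.97 (SE 0.19, adjusted p = 0.0053). *Ahr*, the receptor for dioxins, read 10.52, 10.97 and 11.30 in CONT and 11.50, 11.90 and 12.25 in PCN, a rise of 0.92 (adjusted p = 0.00376) with no overlap. Of 25 tested nuclear receptors and coactivators 3 were called higher (*Nr1i3*, *Ahr* and *Esr1*) and 2 lower (*Ppargc1a* and *Ppargc1b*), and the partner *Rxra* changed by -0.05. The *Esr1* call (0.64) was lost without Pxr-/- CONT 3 or 5 and with the slide as a fixed block.

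Target genes of these receptors changed little or unevenly. *Cyp1a2*, a target of AHR, read 11.28, 12.06 and 12.48 in CONT and 12.66, 12.79 and 12.94 in PCN, a rise of 0.85 (adjusted p = 0.0165) with no overlap. *Cyp2b10*, the standard target of CAR, read 6.56, 8.88 and 10.49 in CONT and 7.88, 10.30 and 11.61 in PCN. Both groups spanned more than 3 log2 units and overlapped widely, and the change of 1.57 (adjusted p = 0.166) did not pass the test. Its close paralog *Cyp2b9* gave 1.41 (adjusted p = 0.174). No gene was called among 8 Cyp3a and 13 Cyp2c genes tested. WT liver had 7 Cyp3a genes called higher, and 3 Cyp2c genes called higher and 1 lower. *Cyp2c38*, called higher in WT liver, rose by 0.54 in Pxr-/- liver (adjusted p = 0.0427) and missed only the fold threshold. Under other settings at most 1 Cyp2c gene was called.

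Among the remaining enzymes and transporters few passed. *Ces2a*, a carboxylesterase, read 12.62, 13.39 and 13.62 in CONT and 13.76, 14.09 and 14.17 in PCN, a rise of 0.71 (adjusted p = 0.00319) with no overlap. *Ces1g* rose by 0.94 (adjusted p = 0.00897), *Nnmt*, which methylates nicotinamide, by 0.96 (adjusted p = 0.00394) on all 3 probes, and *Gstm2*, a glutathione transferase, by 0.78 (adjusted p = 0.0162). *Slco1a4*, an uptake carrier for bile acids and drugs, read 6.59, 7.11 and 8.14 in CONT and 7.82, 8.57 and 9.10 in PCN and rose by 1.31 (adjusted p = 0.014). *Akr1d1*, which reduces the steroid ring in bile acid synthesis, rose by 0.71 (adjusted p = 0.0126), and *Cyp7a1*, the rate-limiting enzyme of that pathway, gave 0.76 (adjusted p = 0.18). In the lists, 3 of 35 other xenobiotic enzymes, 2 of 24 other Cyp genes, 1 of 41 conjugation enzymes and 1 of 24 transporters were called higher, and 2 conjugation enzymes and 1 transporter lower. Without Pxr-/- CONT 2 the change of *Ces2a* was 0.58, just under the fold threshold.

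**Figure D4:**
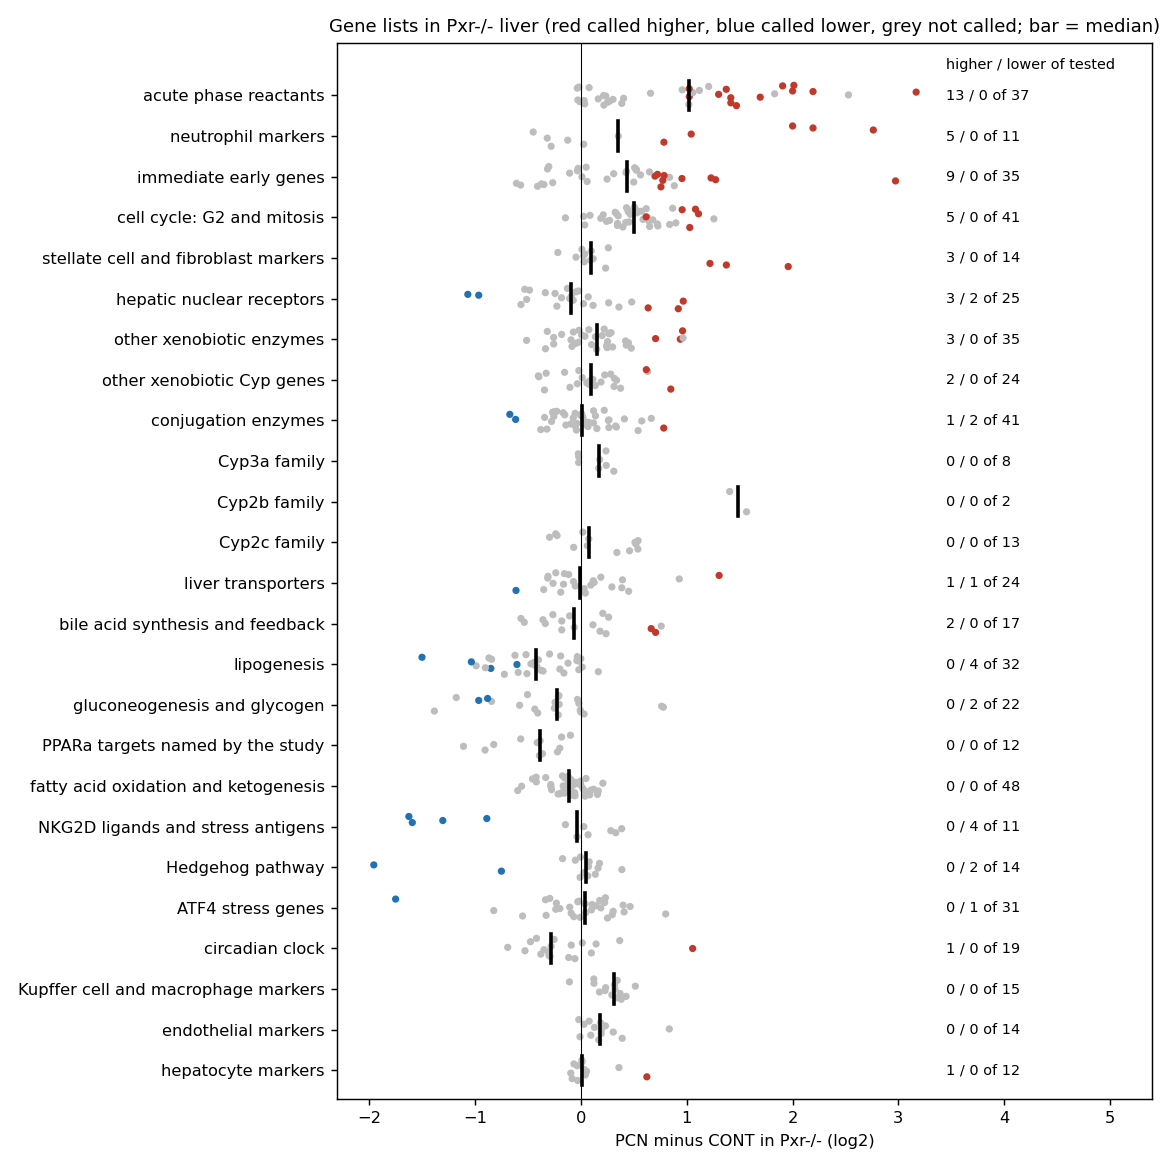
Change after PCN in Pxr-/- liver (log2, x axis) of each tested gene (points) in 25 gene lists, with the median of each list as a bar and the counts called higher and lower at the right. Acute phase genes have 13 of 37 called higher around a median of 1.02, lipogenesis genes 4 of 32 called lower around -0.42, and the Cyp3a, Cyp2b and Cyp2c lists have no call.

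Cell cycle genes leaned upwards. Of 41 tested genes of G2 and mitosis 40 lay above 0 and the median was 0.51, with 5 called higher. *Mki67*, the antigen of dividing cells, read 6.53, 6.87 and 7.34 in CONT and 7.24, 8.06 and 8.51 in PCN. A single PCN liver lay within the CONT range, and the rise was 1.11 (adjusted p = 0.018). *Anln*, an actin-binding protein of the dividing cell, rose by 1.03 (adjusted p = 0.0131), and *Top2a* (0.87) and *Cdc20* (0.90) were not called. Among 33 S phase genes the replicative helicase subunit *Mcm4* rose by 0.74 (adjusted p = 0.0108) and *Mcm10* was called lower (-0.65). Ribosome biogenesis genes, with 36 of 40 above 0 and a median of 0.21, had 2 calls. *Nfil3*, a repressor that opposes the clock factor DBP, rose by 1.06 (adjusted p = 0.0145, both probes, no overlap) and was the only called gene of 19 in the clock list, whose median was -0.28 (-0.13 within washing batch 1). Leaving out Pxr-/- PCN 4 lost the *Mki67* call (adjusted p = 0.0559), leaving out Pxr-/- PCN 2 the *Mcm10* call, and a fixed slide block the calls of *Nfil3* and *Mcm10*. The median of the G2 and mitosis list was 1.09 with 75th percentile scaling and 0.33 with normexp background correction. Its count was 12 with 75th percentile scaling and in the fit of the 12 Pxr-/- arrays alone, 10 without WT PCN 4 and 0 within either washing batch. It was 1 without Pxr-/- PCN 4, 2 without Pxr-/- CONT 1, 3 or 5 or Pxr-/- PCN 1 or 5, and 3 without Pxr-/- CONT 6 or Pxr-/- PCN 3.

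Many lists had no call. Interferon-stimulated genes (34 tested), proteasome subunits (31), cholesterol synthesis (25), iron and heme genes (24), the growth hormone axis (29), fatty acid oxidation (48) and markers of endothelium (14), lymphocytes (12) and cholangiocytes (9) had none in either direction. With any probe of a gene counted, 1 cholesterol synthesis gene was called lower. Among glucocorticoid receptor targets 2 of 26 were called higher, and *Fkbp5*, a sensitive target of that receptor, gave 0.77 (adjusted p = 0.134).

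The Pxr-/- and WT contrasts share no array, so the responses can be set side by side. Both come from 1 fit, however, and share its estimate of the spread, its washing batch term and the probe filter. Their calls are therefore not independent. WT liver had 798 genes (3.79%) called higher and 504 (2.39%) lower. Of the 300 genes called higher in Pxr-/- liver 183 were called higher in WT liver too, which is 61.0% of the Pxr-/- list and 22.9% of the WT list. Of the 181 called lower 77 were shared, 42.5% and 15.3% of the lists. Signs were the same in WT liver for 287 (95.7%) and 154 (85.1%). The median change of the 300 was 0.84 in Pxr-/- and 0.86 in WT liver, and that of the 181 was -0.76 and -0.53. The genes were chosen by their change in Pxr-/- liver, which favours larger medians there, so the sizes are not compared on equal terms. Across all genes the 2 sets of changes had a Pearson r of 0.57, and 68.7% had the same sign, which describes genes and not independent replicates.

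Some inflammatory and matrix genes were called higher in both genotypes. They were 7 of the 13 called acute phase genes, 12 of the 20 called signalling genes and 12 of the 13 called matrix genes. Of all 300 genes called higher in Pxr-/- liver, 183 (61.0%) were shared in this way. The acute phase and signalling shares were not above that share. *Orm3* changed by 3.17 in Pxr-/- and 2.62 in WT liver, *Cxcl1* by 2.69 and 2.14, *Retnlg* by 2.76 and 2.76, and *Egr1* by 2.97 and 2.48. *Col1a1* changed by 1.96 and 3.17, *Ihh* by -1.96 and -3.04, and *Mycn* by -1.62 and -1.83. Each of these named genes was called in both genotypes, and the difference between the genotypes was called for none of them. The acute phase list had medians of 1.02 in Pxr-/- and 0.18 in WT liver with 13 and 8 called higher. With single arrays left out the Pxr-/- median ran from 0.55 to 1.16. No gene of this list had a called difference between the genotypes. *Itih3* gave 1.02 and 0.16, and its difference was not called (0.86, adjusted p = 0.074). Whether the lists differ between the genotypes was not tested.

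A difference between the genotypes was called for 20 of the 481 genes, with 221 (1.05%) called among all genes, 51 (0.242%) with a larger and 170 (0.807%) with a lower value in Pxr-/- liver. Among genes called higher in Pxr-/- liver, 6 changed less than in WT liver. *Gadd45b* rose by 1.23 against 4.35 (difference -3.12, adjusted p = 1.6e-05), *Ces2a* by 0.71 against 3.39, *Gstm2* by 0.78 against 2.41, and *Krt31*, a hair keratin, by 0.98 against 5.41. These genes kept a small rise without PXR. The *Krt31* call in Pxr-/- liver was lost without any of Pxr-/- CONT 1, 3 or 6 or Pxr-/- PCN 2, 3 or 4 (adjusted p up to 0.067), and that of *Rnf150* (0.83 against 5.23) without any of 11 arrays, Pxr-/- CONT 1, 3, 4 and 6, all 6 Pxr-/- PCN and WT PCN 5 (up to 0.0946).

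The other 4 rose in Pxr-/- liver and lay below 0 in WT liver. *Nr1i3* rose by 0.97 and gave -0.30 in WT liver (difference 1.27, adjusted p = 0.0213). *Slc13a3* gave 1.28 and -0.55 (difference 1.83, adjusted p = 0.00321), and *Prox1*, a transcription factor of hepatocyte identity, 0.70 and -0.27 (difference 0.96, adjusted p = 0.0404). *Fam25c* rose by 1.12 in Pxr-/- liver and fell by 0.81 (log2) in WT liver, called in both and with a difference of 1.93 (adjusted p = 0.000265). At vehicle, *Fam25c* and *Prox1* were lower in Pxr-/- than in WT liver, by differences of -0.90 (adjusted p = 0.0262) and -0.75 (adjusted p = 0.037). The *Prox1* call in Pxr-/- liver was lost with the slide as a fixed block.

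All 10 genes called lower in Pxr-/- liver with a called difference changed downwards relative to WT liver, a direction that choosing them by their fall favours. *Cyp26a1* fell in Pxr-/- liver and rose by 1.45 in WT liver (difference -2.95, adjusted p = 0.00143). Its level in WT CONT was 8.36, 8.97 and 9.42 and in WT PCN 9.34, 10.65 and 11.00, so that the vehicle level of Pxr-/- liver lay near the PCN level of WT liver. *Fam198a* fell by 0.73 and rose by 1.25 in WT liver, although its fall was lost without any of 8 arrays, Pxr-/- CONT 1, 3, 4, 5 and 6 and Pxr-/- PCN 1, 3 and 4 (adjusted p up to 0.0959). *Slc13a2* gave -1.56 against 0.71 (difference -2.28, adjusted p = 0.0104), *Raet1c* -0.89 against 0.50 (difference -1.38, adjusted p = 0.00924) and *Tiam2*, an activator of the small GTPase Rac, -1.12 against -0.00 (difference -1.11, adjusted p = 0.0307). The differences for the neighbours of *Raet1c* were not called, with *Raet1e* at -1.62 against -0.44 and *Raet1a* at -1.59 against -0.36.

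**Figure D5:**
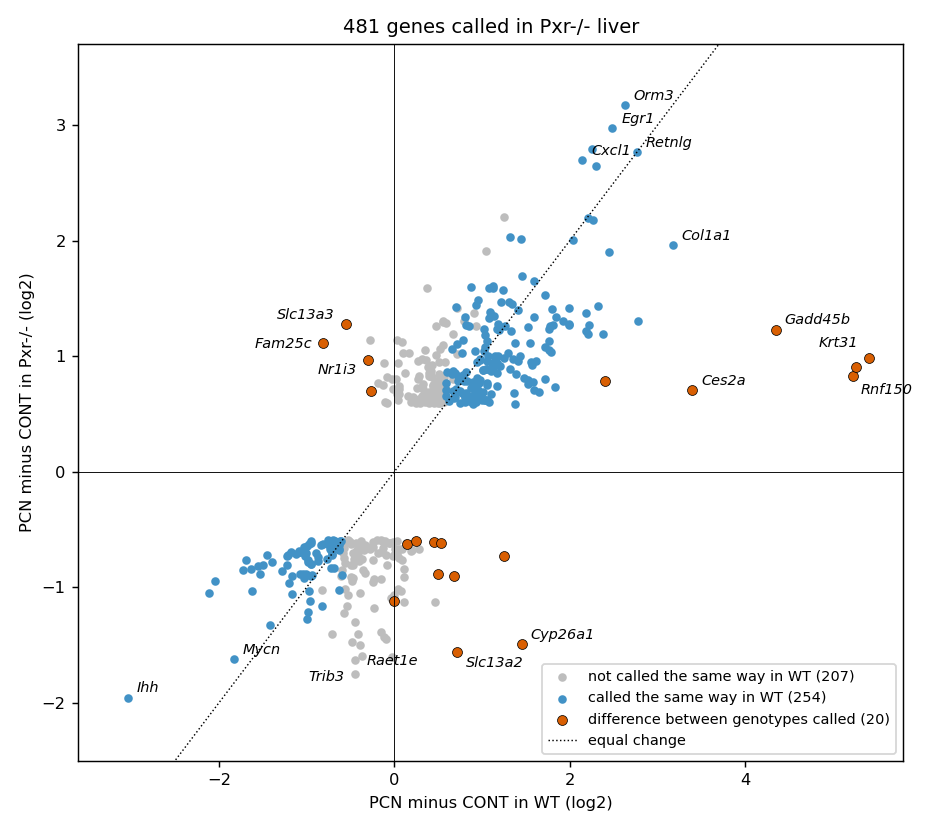
Change after PCN (log2) in WT liver (x axis) and in Pxr-/- liver (y axis) of the 481 genes called in Pxr-/- liver, with the line of equal change dotted. Orange points are the 20 genes whose difference between genotypes was called, and blue and grey points are the others, called and not called the same way in WT liver.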

How the data were processed

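Liver RNA from 23 male mice was hybridised to 1-colour Agilent SurePrint G3 mouse arrays, 1 mouse an array. The deposited scanner files hold spot intensity (median signal), extracted by the authors with Agilent Feature Extraction 10.10.1.1 per the labels. The authors also deposited log2 values of 32574 probes, made from filtered median signals corrected for washing batch and normalized with CrossNorm and read here as an alternative (98.1% of these probes were kept here, column medians 7.54 to 8.01).

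Control spots and the 2225 flagged spots were left out, median intensities were log2 transformed, and spots of a probe were averaged (R 4.3.3 with the data.table package, version 1.17.8). A probe was kept when well above background on over 50% of the arrays of at least 1 group, which left 32086 probes and 21056 genes. The kept probes were then quantile normalized. Each gene was read from its brightest kept probe. RefSeq held 15818 of the gene names (75.1%). All groups were fitted with limma 3.58.1 with washing batch as a term (18 residual degrees of freedom). A call needed an adjusted p of at most 0.05 (Benjamini-Hochberg over all probes) and a fold above 1.5. "At least" folds compare with the lowest level well above background where no array of a group passed it. Promoters came from RefSeq on GRCm38.p6. The steps were tested on simulated data. Columns of no sample numbered 0.

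Groups and gene lists (51 lists, 1086 genes tested) were chosen with earlier results of these data known. Named genes were first a list written down with earlier results of these data known. To it were added the 15 largest changes with a RefSeq name each way and the 5 largest genotype differences each way. Up to 4 called members of each list with its defining members, and the 3 smallest adjusted p each way, were added too. The lists for signalling, matrix, mesothelium, kallikreins and stefins, and other genes named outside those rules, were added after values were seen. Replicate numbers were not used as pairs in the main fit. Alternatives covered normalization, background, filter, blocks, batches and single arrays left out.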

Additional observations from a re-analysis of the deposited data

Results flagged for a closer look

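For 23 of the genes named in the text the change after PCN in Pxr-/- liver differed from that in WT liver by the test of the difference itself (log2, Pxr-/- minus WT). Among known PXR targets the values were *Cyp2c55* -5.72, *Cyp2b10* -5.19, *Cyp2b9* -5.02, *Cyp3a11* -3.24 and *Ces2a* -2.69. *Krt31* (-4.42), *Rnf150* (-4.40), *Gadd45b* (-3.12) and *Gstm2* (-1.62) rose in both genotypes and less in Pxr-/- liver. *Cyp26a1* (-2.95), *Fam198a* (-1.98), *Slc13a2* (-2.28), *Gldc* (-1.58), *Raet1c* (-1.38), *Tnfrsf19* (-1.16) and *Tiam2* (-1.11) were called lower in Pxr-/- liver. The difference was positive for *Fam25c* (1.93), *Slc13a3* (1.83), *Nr1i3* (1.27), *Prox1* (0.96) and *Ppara* (0.87). *Pnpla3* (-2.86) and *Gdf15* (-1.92), a stress hormone, were called higher in WT liver and not called in Pxr-/- liver.

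A sample lay apart from the other 5 of its group in 21 of 358 groups of values tested, and chance gives about 1 in 20. In Pxr-/- CONT 2, *Egr1* (10.1, log2 signal), *Il1rn* (7.40) and *Runx1* (6.78) were high, and *G6pc* (12.5) and *Ces2a* (12.6) low. In Pxr-/- CONT 5, *Saa1* (13.9), *Itih3* (15.4), *Junb* (11.9) and *Plaur* (5.98) were low. In Pxr-/- CONT 6, *BC100530* (5.26) and *Gm5483* (5.72) were high, and in Pxr-/- CONT 3 *S100a6* (9.34) was low. In Pxr-/- PCN 2, *Krt14* (6.23) and *Serpinb5* (5.19) were low and *Egfr* (15.4) was high. In Pxr-/- PCN 4, *Fos* (9.16) was high, and *Etnppl* (10.6) and *Gm19696* (8.09) were low. *Ihh* (8.83) was high in Pxr-/- PCN 6, *Srebf1* (15.3) in Pxr-/- PCN 5, and *Esr1* (10.5) was low in Pxr-/- PCN 1.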

How the results depend on the processing

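Of 300 genes called higher and 181 lower, 36 and 19 were called within washing batch 1 and 49 and 44 within batch 2, where 3 arrays stand against 3, and the 20 called differences between genotypes became 4 and 6. With the slide as a fixed block 116 genes were called lower (233 higher), and 113 in the deposited values. Leaving out single arrays gave 197 to 324 genes called higher, 114 to 231 called lower and 12 to 31 differences between genotypes. The counts of 197 and 114 came without Pxr-/- PCN 4 and that of 12 without Pxr-/- CONT 1, and 31 without WT CONT 2. The difference on the first component was 39.9 to 44.9 with single arrays left out.

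The other settings (no batch term, random slide block, 75th percentile scaling, median centring, normexp, no filter, a filter on all 12 arrays, and the 12 Pxr-/- arrays alone) gave 247 to 390 genes called higher and 143 to 270 lower. With replicate number as a block 310 and 192 genes and 26 differences were called. Among named genes it lost the calls of *Tlr2* and *Fam198a* and added those of *Lcn2*, *Cep55* and *Top2a*. Samples of the same number correlated by 0.036 to 0.172 in their deviations, against medians of -0.156 to 0.027 with the other numbers. The value for the same number was the higher for every replicate number. Whether the numbers mark pairs was not tested, and the main fit did not use them.

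Of 153 called named genes 89 kept their call with any single array left out, 2 (*Fosl2* and *Gm19696*) under all 36 settings, the batches alone included, and *Retnlg* and *Igdcc4* under the 35 that gave a value, since the filter on all 12 arrays removed their probes. Signs reversed only in 4 uncalled genes. *Gdf15* became -0.029 with the slide as a fixed block and -0.041 without Pxr-/- PCN 3 (up to 0.27 without Pxr-/- PCN 1). *Thrsp* became 0.020 within batch 1, and *Hamp* -0.24 within batch 2. *Pnpla3* (0.77 within batch 1) became -0.018 with median centring, -0.021 with normexp, -0.00204 without the filter, -0.77 within batch 2, and -0.21, -0.12, -0.14, -0.09, -0.36 and -0.05 without Pxr-/- CONT 1, 3 and 4 and Pxr-/- PCN 2, 5 and 6 (up to 0.34 without Pxr-/- PCN 4). The cause of these moves was not tested. With fewer samples the within-batch fits call fewer genes by construction. Signals near background limit the dim genes. Lower bounds are given where no CONT array was well above background. *Igdcc4*, *Gm5483*, *Il1r2* and *Has1*, with 1 such CONT array, and *Stfa2l1*, *Clec4e* and *Thbs1*, with 2, have fitted changes whose size moved with the setting, for *Il1r2* from 0.61 to 2.47 and for *Has1* from 0.44 to 1.88.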
